A study of Anas platyrhynchos with 12 samples.

Results

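The KLHL and KBTBD families are proteins that join a BTB domain to a kelch propeller, and they were followed here in the breast muscle of F2 ducks. Members were all gene models whose symbol in the deposited table begins with KLHL or KBTBD and a number, regardless of letter case. This rule found 45 of 16433 gene models, 38 named KLHL and 7 named KBTBD, under 43 different symbols. The series (Anas platyrhynchos, 42 days of age) set 6 breast muscle samples of ducks with a high breast muscle ratio (HB) against 6 of ducks with a low ratio (LB), in search of genes related to growth traits. All ducks came from an F2 population, were kept under the same conditions and had free access to feed and water. The labels give no sex, litter or sampling batch, and do not state that each sample is a different bird. The tests therefore measure only how these samples vary, which may be partly technical.

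Many kelch adaptors hand substrates to the ubiquitin ligase CUL3. The BTB domain binds the cullin CUL3, which recruits a ubiquitin-charged enzyme through RBX1, and the kelch propeller binds the protein to be marked. The ligase is switched on when NEDD8 is attached to the cullin and is switched off by the COP9 signalosome. In skeletal muscle of mammals some members do not destroy their partners but protect them: KLHL40 stabilizes the thin filament proteins nebulin (NEB) and leiomodin 3 (LMOD3), and KLHL41 stabilizes nebulin. Inherited loss of KLHL40 or KLHL41, and mutations of KBTBD13, cause nemaline myopathy, a muscle weakness with rod-shaped protein deposits.

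Libraries held 24090771 to 42503751 counts, and kelch members took 0.213% to 0.435% of them. Levels are given in FPKM, read counts scaled by gene length and by the library's total, which can be compared between genes. Of the skeletal muscle markers, ACTA1, TNNT3, TNNI2 and TNNC2 were abundant in every library, with at least 27044, 5960, 4187 and 3314 FPKM. NEB held 75.3 to 149.7 FPKM, the main TTN model 12.9 to 39.7 FPKM and a second TTN model at most 0.1 FPKM. CKM, DES and MYLPF were not found under these symbols. Neuron markers summed to at most 0.75 FPKM in any library. Library HB-4 stood apart in its immediate early genes, which cells switch on within minutes of a stimulus. FOS, EGR1 and ATF3 summed to 1348 FPKM in HB-4, 213 FPKM in LB-1 and between 23.9 and 364 FPKM in the others. In LB-1 ATF3 held 134.6 FPKM of that sum (median 18.9), FOS 55.8 FPKM (median 41.7) and EGR1 22.9 FPKM (median 25.6). Endothelial markers summed to 123.0 FPKM in HB-4, to 213 FPKM in LB-1 and to 166 to 345 FPKM in the other 10. The cardiac muscle markers found, MYH6 and NPPA, summed to 0.02 FPKM in HB-4, 0.20 FPKM in LB-1 and 0.38 to 16.97 FPKM in the other 10. NPPA held at most 0.12 FPKM in any library. Smooth muscle markers summed to 161.3 FPKM in HB-4, 144.1 FPKM in LB-1 and 76.9 to 159.7 FPKM in the other 10. HB-4 also had the highest adipocyte marker sum, 632 FPKM against 300.1 to 600.0 FPKM in the libraries other than HB-4 and LB-1 (443 FPKM). It was the highest library for PLIN1 (36.4 FPKM, median 8.66), FABP4 (196 FPKM, median 73.5), LPL (101 FPKM, median 38.8), the fibroblast marker PDGFRA (36.0 FPKM, median 17.1) and the macrophage marker CSF1R (27.6 FPKM, median 13.4). The adipocyte marker ADIPOQ was not highest in HB-4 (298 FPKM, median 268). Nor were the fibroblast markers DCN (163 FPKM, median 155) and COL1A2 (333 FPKM, median 262). The part of these differences in the kelch results was not tested. Log2 differences that HB-4 or LB-1 moved by over 1.5 times are given with and without them for many named genes, but not for all.

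A few members made up most of the kelch message. By the mean over 12 libraries, 12 members reached at least 10 FPKM, 22 lay between 1 and 10 FPKM and 11 lay under 1 FPKM. KLHL41 was the most abundant with a mean of 212 FPKM, followed by KLHL40 with 131.1 FPKM and KLHL31 with 54.5 FPKM. The second rank of KLHL40 was carried by 2 libraries: it was above KLHL31 in 3 of 12, and the medians were 37.2 FPKM for KLHL40 and 52.9 FPKM for KLHL31. Next came KLHL30 (37.1 FPKM), KLHL21 (36.2 FPKM), KBTBD13 (27.1 FPKM), KLHL12 (19.7 FPKM), KLHL23 (19.1 FPKM), KLHL24 (18.2 FPKM), KLHL7 (16.9 FPKM), KLHL5 (16.3 FPKM) and KLHL6 (11.6 FPKM). The model named KLHL23 carries the gene number of SSB, not a kelch gene, in the reference gene table. Whether KLHL23 itself is abundant is therefore unknown. KLHL41 was above KLHL31 in 12 of 12 libraries, and KLHL31 was above KLHL30 in 11 of 12. Among the other neighbours in this order, KLHL30 was above KLHL21 in 7 of 12 libraries, KLHL12 above KLHL23 in 6, KLHL23 above KLHL24 in 7, KLHL24 above KLHL7 in 5, KLHL7 above KLHL5 in 7 and KLHL6 above KLHL22 in 7, so those steps were within the spread between libraries. Just at the 10 FPKM line, KLHL6 had 11.6 FPKM on the inside and KLHL22 had 9.79 FPKM on the outside.

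**Figure D1:**
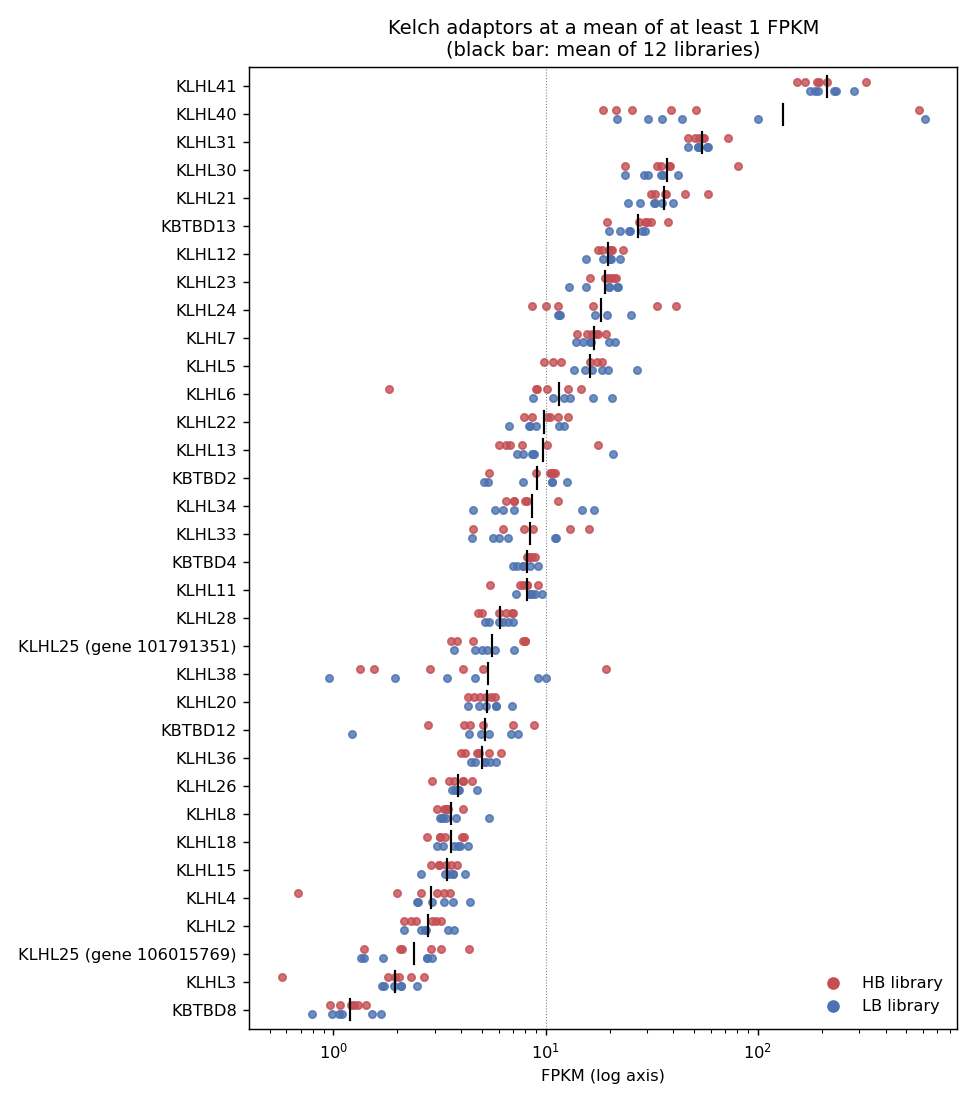
FPKM (log axis) of the 34 kelch members with a mean of at least 1 FPKM, with 1 point per library (red HB, blue LB) and a black bar at the mean of the 12 libraries. KLHL41 lies between 154 and 323 FPKM in all libraries, whereas KLHL40 has 2 libraries above 500 FPKM and 10 at 18.7 to 100.2 FPKM.

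KLHL41, which binds the sarcomere proteins nebulin and NRAP in mammals, was high in every library. It had a lowest, median and highest value of 154, 192 and 323 FPKM in HB and of 176, 210 and 285 FPKM in LB. HB-5 and LB-1 were the high libraries, and the LB range lay inside the HB range. HB averaged 206 ± 60.9 and LB 217 ± 40.8 FPKM (SD, n = 6). The log2 difference, HB minus LB, was -0.03 ± 0.21 (SE, edgeR, adjusted p 0.994), and 0.11 without LB-1.

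KLHL40, the partner of nebulin and LMOD3, had a different pattern: 2 libraries, 1 of each group, carried most of its message. It had 615 FPKM in LB-1 and 572 FPKM in HB-4. The other LB libraries held 30.2, 100.2, 43.7, 21.8 and 35.3 FPKM for LB-2 to LB-6. The other HB libraries held 25.4, 39.0, 21.5, 18.7 and 51.0 FPKM for HB-1, HB-2, HB-3, HB-5 and HB-6. Set against the median of those 10 libraries, 32.8 FPKM, LB-1 was 18.8-fold and HB-4 17.5-fold higher. The raw counts behind this ran from 2038 to 63536 reads, so counting error is small beside the range of 32.9-fold between libraries. In LB-1 and HB-4 KLHL40 was the first of all kelch members, with 49.4% and 47.2% of their summed FPKM. In the other 10 libraries KLHL41 was first, and KLHL40 stood between the second and the seventh place with 2.61% to 14.4% of the sum.

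The group means of KLHL40 were set by these 2 libraries. HB averaged 121 ± 221 and LB 141.0 ± 234 FPKM (SD, n = 6), with a log2 difference of -0.26 ± 1.08 (SE, edgeR, adjusted p 0.993). Without LB-1 the log2 difference was 1.48, without HB-4 it was -2.28 (unadjusted p 0.0244 in edgeR), and without both it was -0.53 (unadjusted p 0.215 in edgeR). With both left out, HB averaged 31.1 ± 13.6 and LB 46.2 ± 31.2 FPKM (SD, n = 5). The authors' deposited table lists a p-value of 1 for KLHL40, whereas DESeq2 with default settings gave this gene no p-value here. The listed value may stand for a missing one and is not read as a test result.

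LB-1 and HB-4 are the 2 libraries in which KLHL40 stood out, so it was higher in both than in each of the other 10 by that choice. This held for no other member, 1 of 34 at 1 FPKM or more. Of 10361 tested genes at that level it held for 251 (2.42%), so nothing about the family is read from this count. KLHL34, KLHL13 and KBTBD12 stood out in LB-1 but not in the same way in HB-4. KLHL34 had 17.0 FPKM in LB-1, 14.8 FPKM in LB-6 and 11.5 FPKM in HB-4, against 4.55 to 8.19 FPKM elsewhere. KLHL13, which in human cells helps direct the mitotic kinase Aurora B, had 20.9 FPKM in LB-1 and 17.7 FPKM in HB-6, against 6.04 to 10.1 FPKM elsewhere. The log2 differences of KLHL34 and KLHL13 were -0.16 ± 0.32 and -0.18 ± 0.33 and turned to 0.17 and 0.22 without LB-1. KBTBD12 was low in LB-1, with 1.23 FPKM against 2.79 to 8.77 FPKM in the other libraries. KLHL11 was the only member of the 34 that was lower in both LB-1 (7.26 FPKM) and HB-4 (5.47 FPKM) than in the other 10 libraries. LB-1 lay close to the next library, HB-5 (7.56 FPKM). The share of all tested genes that were lower in both was not computed, so nothing about the members is read from this count.

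KLHL31, which directs filamin C (FLNC) to degradation in mouse muscle, was among the steadiest members. It had a lowest, median and highest value of 46.7, 54.1 and 72.5 FPKM in HB and of 47.1, 52.5 and 58.2 FPKM in LB. HB-5 alone stood above 60 FPKM, and the groups overlapped. HB averaged 55.7 ± 8.89 and LB 53.4 ± 4.16 FPKM, with a log2 difference of 0.11 ± 0.13 (adjusted p 0.977 in edgeR). Without HB-5 the log2 difference was -0.0053.

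KBTBD13, a nemaline myopathy gene whose protein binds thin filaments, had a lowest, median and highest value of 19.5, 29.7 and 37.6 FPKM in HB and of 19.97, 24.9 and 29.5 FPKM in LB. Of the HB libraries, HB-6 lay below every LB library and HB-5 was the highest of all 12. HB averaged 29.2 ± 5.87 and LB 25.1 ± 3.58 FPKM. The log2 difference was 0.28 ± 0.15 (unadjusted p 0.0812, adjusted p 0.977 in edgeR), from 0.17 without HB-5 to 0.38 without HB-6 when single libraries were left out.

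**Figure D2:**
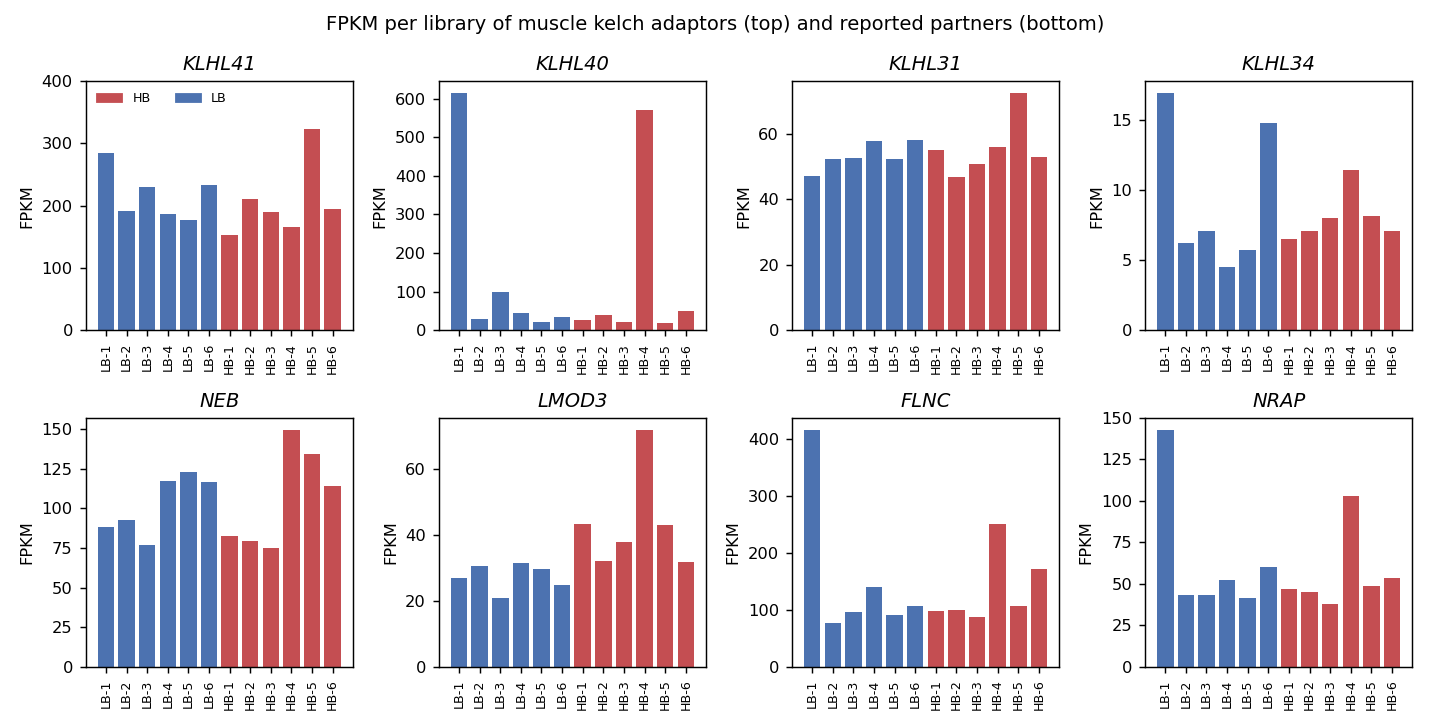
Bars give FPKM in each of the 12 libraries (blue LB, red HB) for 4 kelch adaptors in the top row and 4 proteins reported as partners of KLHL40, KLHL41 or KLHL31 in the bottom row, each panel with its own axis from 0. KLHL40, FLNC and NRAP peak in LB-1 and HB-4, KLHL41 and KLHL31 do not, and LMOD3 is higher in each HB library than in each LB library.

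The partners of the muscle adaptors were read from a list of 30 reported partners and substrates, of which 26 were found by symbol and 28 gene models were tested. LMOD3, which nucleates actin at thin filaments, was the member with the smallest p. It had 43.2, 32.2, 37.97, 71.9, 42.9 and 31.9 FPKM in HB-1 to HB-6, and 27.0, 30.5, 21.0, 31.4, 29.7 and 24.8 FPKM in LB-1 to LB-6. Each HB library lay above each LB library, the closest being HB-6 and LB-4. HB averaged 43.3 ± 14.8 and LB 27.4 ± 3.97 FPKM, and the log2 difference was 0.71 ± 0.21 with an unadjusted p of 0.00448. It did not pass the threshold, since its adjusted p was 0.977 in edgeR. Groups that do not overlap were found for 12 of 12577 tested genes (0.0954%), 5 of them higher in HB (0.0398%) and 7 lower (0.0557%). LMOD3 has the smallest p of 28 models, on a list chosen with earlier results of these data known. The share therefore does not measure how unusual its separation is. HB-4 was the highest library for LMOD3, and without it the log2 difference was 0.50.

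NEB, the giant protein that spans the thin filament, overlapped between the groups. It had 75.3 to 149.7 FPKM in HB and 77.1 to 123 FPKM in LB. The log2 difference was 0.10 ± 0.21 (adjusted p 0.989 in edgeR), and -0.0284 without HB-4. FLNC, the filamin of the muscle Z-disc, had 417 FPKM in LB-1 and 251 FPKM in HB-4. The remaining libraries held 77.9 to 171 FPKM of FLNC. NRAP, a scaffold of growing myofibrils that binds KLHL41, had 142.9 FPKM in LB-1 and 103.0 FPKM in HB-4, against 37.6 to 59.9 FPKM elsewhere. Their log2 differences were -0.21 ± 0.46 and -0.19 ± 0.37 and turned to 0.47 and 0.30 without LB-1. LMOD2, a leiomodin of the same list that is best known from heart muscle and is named here after its values were seen, had 43.0 FPKM in LB-1 and 171 FPKM in HB-4, against 0.54 to 9.24 FPKM elsewhere. Over the whole list 9 models were higher and 19 lower in HB, the median log2 difference being -0.08, and 0 passed the threshold. Among all tested genes 49.9% were higher in HB, and the split of this list was not tested.

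Of 6 pairs of a kelch adaptor and another kelch adaptor or partner, 0 had a correlation across libraries that passed 0.05 after adjustment. All pairs but KLHL41 with NEB were read over 10 libraries, without LB-1 and HB-4, although all 12 had been planned. Those 2 were the highest libraries for KLHL40, FLNC and NRAP. For FLNC, HB-4 (251 FPKM) lay nearer to HB-6 (171 FPKM) than to LB-1 (417 FPKM). Values over all 12 libraries are not given for the pairs read over 10, and the adjustment took both kinds of pair together. Leaving out both libraries bears on KLHL40 with LMOD3 as well. HB-4 was high for KLHL40 and the highest library for LMOD3 (71.9 FPKM), while LB-1 held 27.0 FPKM of LMOD3. Neither the size nor the sign of r for this pair can therefore be carried over to all 12 libraries. Read over the 10 libraries, KLHL40 with LMOD3 had the strongest Pearson correlation of log2 values. Pearson's r was -0.757 (permutation p 0.0121, adjusted p 0.0726) and Spearman's rho -0.527 (permutation p 0.125, adjusted p 0.375). It rested on LB-3 and HB-5, the libraries farthest from the median of KLHL40, since r was -0.369 without them (exact permutation p 0.382). KLHL40 had r = 0.007 with KLHL41 (adjusted permutation p 0.985, rho 0.139 with adjusted permutation p 0.767). With NEB it had r = -0.287 (adjusted permutation p 0.771, rho -0.261 with adjusted permutation p 0.704). KLHL41 with NRAP had r = 0.247 (adjusted permutation p 0.771, rho 0.382 with adjusted permutation p 0.558), and KLHL31 with FLNC had r = 0.215 (adjusted permutation p 0.771, rho 0.612 with adjusted permutation p 0.375). KLHL41 with NEB, over all 12 libraries, had r = 0.037 (adjusted permutation p 0.985, rho -0.098 with adjusted permutation p 0.767), with 0.301 within HB and -0.546 within LB (exact permutation p 0.643 and 0.244, n = 6). Without the 2 farthest libraries r was 0.442 for KLHL40 with KLHL41, 0.363 for KLHL40 with NEB, 0.393 for KLHL41 with NRAP, 0.423 for KLHL31 with FLNC and -0.25 for KLHL41 with NEB. In this setting rho was 0.762 for KLHL31 with FLNC (exact permutation p 0.0368, not adjusted, n = 8). For every other pair the permutation p of rho was at least 0.151.

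Among abundant members with roles outside the thin filament, KLHL21 had the smallest p. KLHL21 guides Aurora B to the spindle midzone in dividing human cells, where its ligase marks the kinase with ubiquitin. It had a lowest, median and highest value of 31.3, 36.7 and 58.4 FPKM in HB and of 24.5, 32.6 and 39.9 FPKM in LB. HB-4 and HB-1 were the high libraries and LB-1 the low one, and the groups overlapped. HB averaged 40.2 ± 10.1 and LB 32.1 ± 5.45 FPKM. The log2 difference was 0.38 ± 0.17, with an unadjusted p of 0.0413 and an adjusted p of 0.977 in edgeR. Without HB-4 it was 0.24 (unadjusted p 0.101), and without LB-1 and HB-4 it was 0.20 (unadjusted p 0.175).

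KLHL30, a kelch protein for which no role is stated here, had 38.1, 35.1, 38.5, 80.8, 33.6 and 23.5 FPKM in HB-1 to HB-6, against 23.6 to 42.1 FPKM over the LB libraries. HB-4 stood far above the other HB libraries, which overlapped with LB. Its log2 difference of 0.39 ± 0.27 was 0.08 without HB-4. KLHL24, whose gain-of-function mutations cause skin fragility in humans, was also highest in HB-4, with 41.2 FPKM. HB-2 followed with 33.6 FPKM and LB-3 with 25.3 FPKM, and the other 9 libraries held 8.65 to 19.5 FPKM. Its log2 difference of 0.37 ± 0.40 was 0.02 without HB-4.

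KLHL12, KLHL7 and KLHL23 were steady. KLHL12, which marks the coat protein SEC31A so that large vesicles can carry collagen out of the cell, had 15.4 to 23.2 FPKM over all libraries, with a log2 difference of 0.09 ± 0.08 (adjusted p 0.977 in edgeR), or 0.05 without LB-1. KLHL7, mutated in an inherited retinal degeneration, had 13.8 to 21.2 FPKM and a log2 difference of 0.02 ± 0.09, or 0.06 without HB-4. The sign of the KLHL7 difference turned when libraries were scaled by their totals alone (-0.03). The model named KLHL23 had 12.8 to 21.99 FPKM and a log2 difference of 0.13 ± 0.11, or 0.07 without LB-1. Its gene number belongs to SSB, the RNA-binding La protein, in the reference gene table, so its reads may not be those of KLHL23.

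KLHL5 and KLHL6 had lower means in HB. KLHL5 had a lowest, median and highest value of 9.81, 14.0 and 18.5 FPKM in HB and of 13.6, 17.5 and 26.9 FPKM in LB. HB-4, HB-5 and HB-3 lay below every LB library and the rest overlapped, and the log2 difference was -0.35 ± 0.18 (unadjusted p 0.0717, adjusted p 0.977 in edgeR), or -0.22 without LB-1 and HB-4. KLHL6, known from B lymphocytes and endothelium, had a lowest, median and highest value of 1.83, 9.62 and 14.7 FPKM in HB and of 8.68, 12.6 and 20.5 FPKM in LB. Its lowest library, HB-4, was also lowest for the endothelial genes CDH5 (57.5 FPKM), KDR (8.88 FPKM) and TEK (6.16 FPKM). PECAM1, the fourth endothelial marker, was not lowest there (49.5 FPKM, with 41.5 to 70.4 FPKM over all libraries), and the part of these cells in the result was not tested. In bulk muscle, fewer cells of a type and less RNA per cell cannot be told apart. The log2 difference of KLHL6 was -0.49 ± 0.37, and -0.27 without HB-4. Of the 4 leukocyte markers, HB-4 was the lowest library for the B-cell marker CD79B (0.11 FPKM, median 0.39) and the T-cell marker CD3E (0.53 FPKM, median 1.52), and the highest for CSF1R. PTPRC, a marker of all leukocytes, lay at 2.50 FPKM in HB-4 and at 2.30 to 3.98 FPKM over all libraries. Their part in the KLHL6 result was not tested.

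Members between 1 and 10 FPKM included adaptors of metabolic signalling. KBTBD2, which limits the insulin signalling subunit PIK3R1 in mice, had a lowest, median and highest value of 5.43, 10.6 and 11.04 FPKM in HB and of 5.10, 9.23 and 12.7 FPKM in LB. HB-5, LB-2 and LB-4 were low, at 5.10 to 5.43 FPKM, and the other libraries held 7.80 to 12.7 FPKM. The log2 difference of KBTBD2 was 0.16 ± 0.24, and 0.35 without LB-1. KLHL22, which directs the growth signalling brake DEPDC5 to degradation in human cells, averaged 10.2 ± 1.78 in HB and 9.36 ± 2.08 in LB (FPKM). KLHL25, an adaptor for the translation repressor EIF4EBP1 and the lipid enzyme ACLY, had 2 gene models. The model on the KLHL25 gene number had 3.57 to 8.01 FPKM. The other, described as KLHL23 in the table, had 1.35 to 4.35 FPKM and a log2 difference of 0.37 ± 0.30, which was 0.17 without HB-4 and 0.10 without LB-1 and HB-4. KBTBD4, which has mutations in human medulloblastoma, was the steadiest of all 34 members, at 7.02 to 9.25 FPKM and a coefficient of variation of 7.53%. Its log2 difference was 0.13 ± 0.08 (unadjusted p 0.155 in edgeR).

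KLHL38 and KLHL33 varied far more. KLHL38 had 1.34, 1.56, 4.07, 19.2, 2.84 and 5.05 FPKM in HB-1 to HB-6 and 1.95, 4.64, 3.43, 9.18, 9.99 and 0.95 FPKM in LB-1 to LB-6. HB-4 was 20.2-fold above LB-6, and high and low libraries occurred in both groups. Its log2 difference of 0.23 ± 0.70 turned to -0.73 without HB-4. KLHL33 had 4.55 to 16.0 FPKM in HB and 4.48 to 11.2 FPKM in LB, with HB-1 and HB-3 highest. KLHL4 and KLHL3, the latter the adaptor that controls WNK kinases of salt transport in the mammalian kidney, were lowest in HB-4 as KLHL6 was. KLHL4 had 0.68 FPKM in HB-4 against 1.99 to 4.38 elsewhere, and KLHL3 had 0.57 FPKM in HB-4 against 1.70 to 2.68 elsewhere. KLHL4 had a log2 difference of -0.30 ± 0.29, and -0.10 without HB-4.

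The remaining members of this band gave no call either. KLHL11, a target of autoantibodies in a human brain inflammation, averaged 7.74 ± 1.25 in HB and 8.55 ± 0.77 in LB (FPKM), with a log2 difference of -0.10 ± 0.10 that was -0.02 without HB-4, its lowest library. KLHL20, which marks PML and the death kinase DAPK1, had 4.29 to 6.91 FPKM, and KLHL15, an adaptor for a phosphatase subunit, had 2.59 to 4.15 FPKM. KLHL18, an adaptor for Aurora A, had 2.75 to 4.30 FPKM. KLHL28, KLHL36, KLHL26, KLHL8, KLHL2 and KBTBD8 had means of 6.08, 5.01, 3.88, 3.59, 2.78 and 1.197 FPKM. KBTBD8, which is needed for neural crest formation in frogs and human cells, was the member just above 1 FPKM, and an assembled KLHL29 model with 0.96 FPKM was the member just below it. The LB library LB-6 stood out for KLHL8 with 5.43 FPKM, and LB-3 stood out for KLHL26 with 4.73 FPKM.

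The 11 members under 1 FPKM included adaptors known from testis and brain. KLHL10, required for male fertility in mice, had a lowest, median and highest value of 0.44, 0.77 and 1.05 FPKM in HB and of 0.34, 0.50 and 0.65 FPKM in LB, from 28 to 86 counts per library. The groups overlapped, and the log2 difference was 0.59 ± 0.27 (unadjusted p 0.0472, adjusted p 0.977 in edgeR). Without HB-4 it was 0.45 (unadjusted p 0.118 in edgeR). KLHL1, an actin-binding protein of neurons, had 0 counts in 4 libraries and at most 13 counts, and it was the 1 member that the filter on low counts left untested. KLHL35 had 0 to 25 counts. KBTBD11, KLHL17, KLHL42, KBTBD3, KLHL32 and KLHL14 had means of 0.88, 0.85, 0.62, 0.31, 0.30 and 0.27 FPKM, and the second KLHL29 model had 0.85 FPKM. KLHL32 had a log2 difference of 0.45 ± 0.69, which was 0.97 without LB-1 and -0.21 without HB-6. KBTBD11 had 1.24 FPKM in HB-4 against 0.67 to 0.78 FPKM for the remaining HB libraries, within the LB range of 0.63 to 1.26 FPKM, with a log2 difference of -0.23 ± 0.21. Without HB-4 it was -0.41 (unadjusted p 0.0306 in edgeR), and without LB-1 and HB-4 it was -0.48 (unadjusted p 0.0109 in edgeR).

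The spread between libraries differed widely within the family. Over the 34 members at 1 FPKM or more the median coefficient of variation was 22.3%, with quartiles of 13.5% and 39.5%. All 10361 tested genes at that level had a median of 19.4% and quartiles of 14.4% and 29.1%. KLHL40 (165.6%) and KLHL38 (97.9%) varied most, followed by KLHL24 (56.3%), KLHL13 (47.5%), KLHL34 (43.8%), KLHL33 (43.0%), KBTBD12 (40.1%), KLHL30 (40.1%) and KLHL6 (40.1%). KBTBD4 (7.53%), KLHL12 (10.4%), KLHL26 (11.98%) and KLHL31 (12.3%) varied least. Without LB-1 and HB-4 the coefficient was 62.1% for KLHL40, 72.3% for KLHL38, 18.9% for KLHL30 and 50.2% for KLHL24, so KLHL38 then varied most. These 2 libraries also held the most extreme values: 7 of the 34 members lay over 1 log2 unit from their own median in HB-4 and 4 in LB-1, against 0 to 2 in each other library. The same count was not made over all tested genes, so it is not read as a trait of the family.

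**Figure D3:**
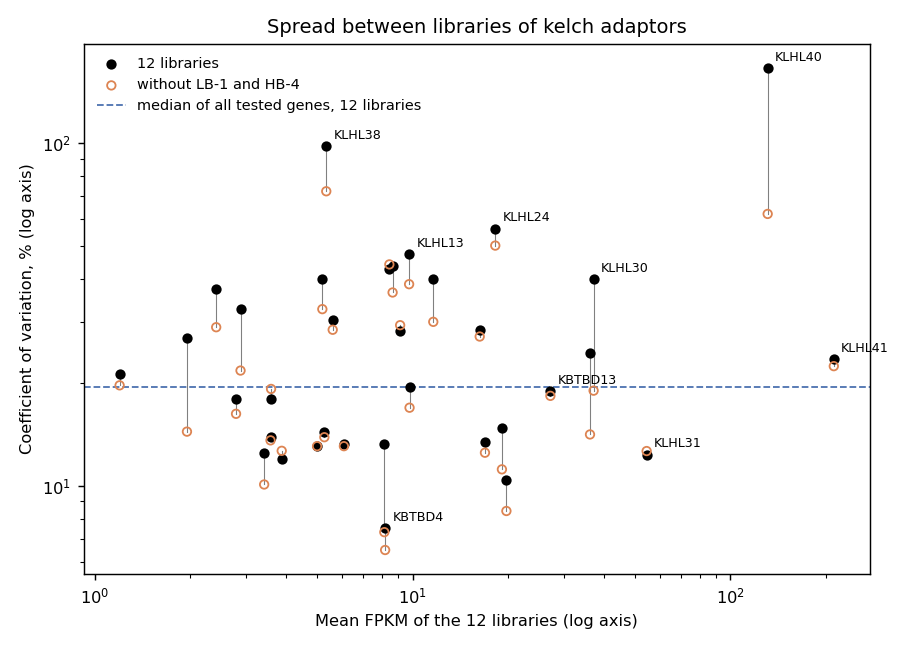
Each of the 34 kelch members at 1 FPKM or more is plotted by its mean FPKM and its coefficient of variation over 12 libraries (black points) and without LB-1 and HB-4 (open orange circles), both axes logarithmic. The dashed line marks the 19.4% median of all tested genes, and KLHL40 moves from 165.6% to 62.1% when the 2 libraries are left out.

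**Figure D4:**
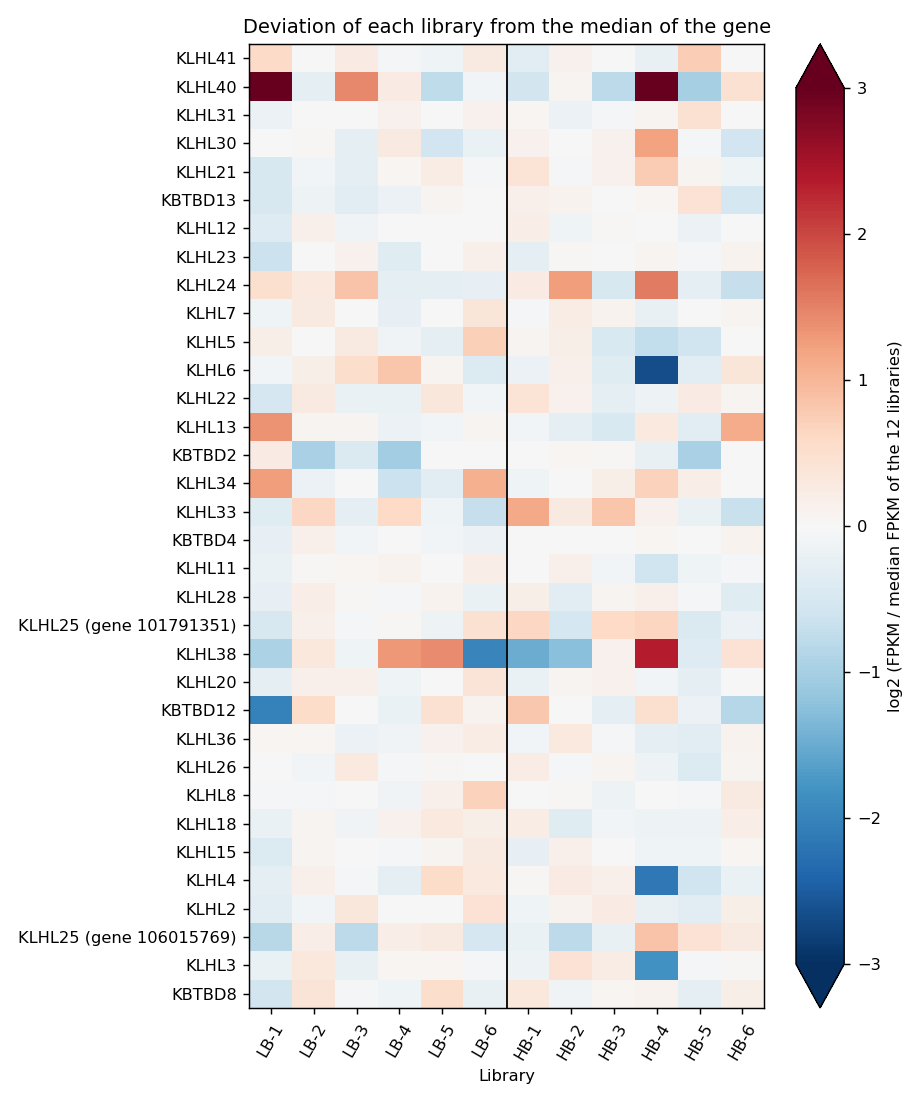
Colours give the log2 ratio of each library to the median of the 12 libraries for the 34 members (rows, in order of mean FPKM; red higher, blue lower, saturated beyond 3). HB-4 holds 7 members over 1 log2 unit from their median and LB-1 holds 4, a count that was not made over all genes. For 0 members do the HB and LB columns fail to overlap.

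Between HB and LB, 0 of 44 tested members passed the threshold of 0.05 after adjustment in edgeR, as did 0 of all 12577 tested genes (0%). At an unadjusted p under 0.05, 2 of 44 members (KLHL21 and KLHL10) were higher in HB and 0 were lower, where all genes gave 2.34% higher and 2.27% lower, 4.6% in all. DESeq2 gave 0 members past the adjusted threshold, 1 of 14981 genes (0.00668%), and likewise 2 members at an unadjusted p under 0.05 with 4.87% of all genes. The share of members is thus near the background. For 0 of 44 members did the groups fail to overlap. Of the tested members 25 were higher and 19 lower in HB (56.8% higher, against 49.9% of all tested genes). Their median log2 difference was 0.08 where all genes had 0.00, and their median size was 0.15 where all genes had 0.13. In the authors' deposited table, KLHL21 and KLHL10 had p-values of 0.0325 and 0.0361 and adjusted values of 0.957 and 0.98. DESeq2 gave the same 2 unadjusted p-values here, so the authors' values are no second source.

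**Figure D5:**
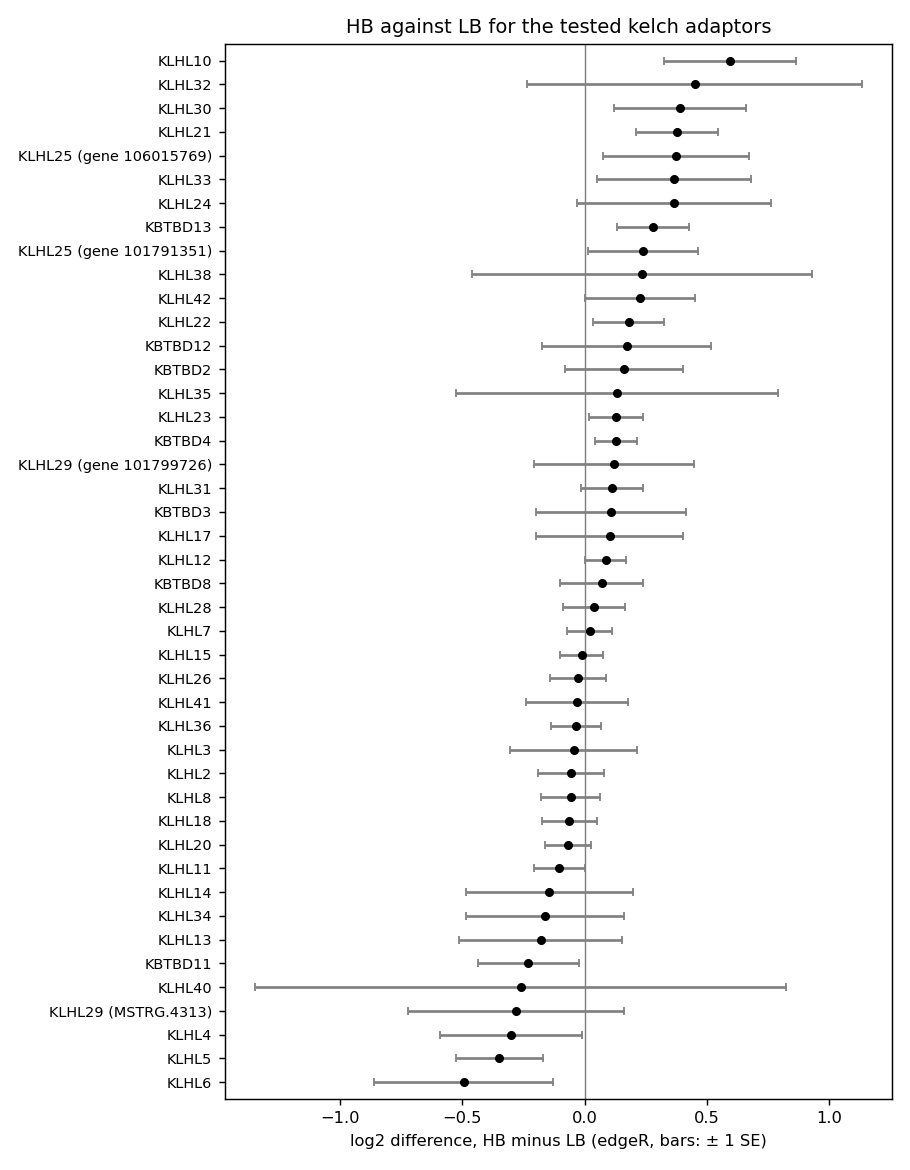
Points give the log2 difference, HB minus LB, of the 44 tested kelch members in edgeR with bars of 1 SE to each side, ordered by size. The differences run from -0.49 (KLHL6) to 0.59 (KLHL10), and KLHL40 has the widest bar, 1.08 to each side.

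CUL3 is the cullin that many kelch adaptors bind, and binding was not measured here. It had a lowest, highest and mean value of 29.5, 44.0 and 34.8 ± 5.31 FPKM for HB and of 32.1, 39.5 and 37.6 ± 2.74 FPKM in LB (SD, n = 6). In LB, LB-1 held the 32.1 FPKM and the others 37.8 to 39.5 FPKM. The log2 difference of CUL3 was -0.06 ± 0.11 (adjusted p 0.989 in edgeR), or -0.03 without HB-4. RBX1, its ring finger partner, averaged 48.8 ± 8.05 in HB and 47.3 ± 6.52 in LB (FPKM). Of 29 genes of the CUL3 core, NEDD8 pathway and COP9 signalosome, 25 were found by symbol and 28 gene models were tested. NEDD8, UBE2M, COPS6 and CAND2 were not found under these symbols. Mean levels ran from 2.80 FPKM for DCUN1D3, which promotes NEDD8 attachment, to 71.2 FPKM for the ubiquitin-conjugating enzyme UBE2D3. Of these models, 22 were higher and 6 lower in HB, the median log2 difference being 0.09, and 0 passed the threshold. All tested genes gave 6277 higher and 6300 lower, and the split of this list was not tested. The smallest p belonged to the signalosome subunits COPS9 (0.26 ± 0.10, unadjusted p 0.0207 in edgeR) and COPS5, the subunit that removes NEDD8 (0.22 ± 0.11, unadjusted p 0.064 in edgeR). CAND1, which exchanges substrate receptors on cullins, followed, with averages of 57.1 ± 13.4 (HB) and 46.8 ± 8.84 (LB) FPKM and a log2 difference of 0.33 ± 0.19 for the most abundant of its 3 models, or 0.21 without HB-4. That model carries a locus number and not the name CAND1 in the reference gene table. The model on the gene that the reference names CAND1 went the other way, with averages of 8.11 ± 1.32 (HB) and 9.29 ± 0.92 (LB) FPKM and a log2 difference of -0.16 ± 0.10 (unadjusted p 0.123 in edgeR).

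BTB adaptors outside the KLHL and KBTBD names gave 13 higher and 7 lower among 20 tested models, with a median log2 difference of 0.04 and 0 past the threshold. Among all tested genes 49.9% were higher in HB, and this split was not tested either. IVNS1ABP, another kelch protein, averaged 104.5 ± 22.03 in HB and 86.8 ± 17.9 in LB (FPKM). By their means this was more per length than all kelch members but KLHL41 and KLHL40. The KLHL40 mean was carried by LB-1 and HB-4, and by their medians IVNS1ABP (91.7 FPKM) lay above KLHL40 (37.2 FPKM). BTBD6, an adaptor known from nerve formation in zebrafish, had a log2 difference of -0.31 ± 0.14 (unadjusted p 0.0437 in edgeR), and -0.24 without HB-4 (unadjusted p 0.0964 in edgeR). ABTB1 had 0.25 ± 0.13 (unadjusted p 0.0839 in edgeR), or 0.15 without HB-4, and IVNS1ABP 0.31 ± 0.15 (unadjusted p 0.0657 in edgeR). Among substrates, WNK4, the target of KLHL3, averaged 8.02 ± 3.02 in HB and 11.9 ± 2.66 in LB (FPKM), a log2 difference of -0.55 ± 0.24 (unadjusted p 0.0416 in edgeR), and -0.34 without LB-1 and HB-4 (unadjusted p 0.165 in edgeR). PML, a target of KLHL20, had -0.77 ± 0.33 (unadjusted p 0.0359 in edgeR) in the model with the smaller p, which carries a locus number in the reference gene table. The model on the gene that the reference names PML had -0.35 ± 0.33 (unadjusted p 0.309 in edgeR). For the former, the highest library, LB-5, held 4.38 FPKM, and without single libraries the value ran from -0.90 to -0.38.

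In the reference genome 2 pairs of members were direct neighbours. KLHL6 and KLHL24 had no other protein-coding gene between them (0 between) and had means of 11.6 and 18.2 FPKM, with overlapping ranges and KLHL24 the higher in 9 of 12 libraries. HB-4 was the lowest library for KLHL6 and the highest for KLHL24. KLHL10 and KLHL11, likewise adjacent, had means of 0.61 and 8.15 FPKM. For these pairs the order of genes was taken from the reference gene table, which may differ from the assembly used for counting.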

How the data were processed

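RNA of 6 HB and 6 LB breast muscle samples was sequenced after Trizol extraction and a TruSeq library kit, per the labels' protocols. The submitters' processing notes name fastp 0.18.0, HISAT2, StringTie 1.3.1 and DESeq2; no source used here names the genome build, the annotation or how reads were counted, so whether counting used strand is unknown. The deposited table holds raw read counts per gene model and library. It also holds the authors' mean FPKM per group, their log2 fold change between those means and their p-value with its adjusted value, per the file headers. A mean of 0 was written as 0.001.

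FPKM per library was computed here to 2 decimals from counts, library totals and the gene length implied by the deposited means. Lengths implied by the HB and LB means differed by at most 0.465% over 10188 genes. The table's 12 further columns of values per library were not used. Column names give a group and a number but tie no library to a particular sample. Of the members, 44 had a gene number found in the reference gene table (assembly GCF_047663525.1), 42 with the same symbol, and 1 was an assembled model. Reads of models that share a symbol (KLHL25, KLHL29) may be split between them.

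edgeR 4.0.16 (R 4.3.3) ran its quasi-likelihood test over all 12577 genes that passed filterByExpr, with TMM scaling and Benjamini-Hochberg adjustment at 0.05. The SE of a log2 difference is its size divided by the square root of F. The procedure was also run on simulated counts, drawn independently for each gene and library. That setting lacks shifts shared by many genes of a library, such as those of LB-1 and HB-4. Its outcome is not given here, and no result rests on it. Correlations used log2(FPKM + 1), 100000 permutations (all orders where under 10 libraries) and adjustment over 6 pairs. Alternatives were DESeq2 1.42.0, limma 3.58.1 on log2(FPKM + 1) and log2(FPKM + 0.1), upper-quartile scaling, scaling by totals, no filter, and leaving out libraries. Leaving out LB-1 and HB-4 together, and setting them apart in correlations, was chosen after seeing the data. Counts of any pair of libraries within a group differed beyond sampling noise (chi-square over its degrees of freedom at least 66.8), and 0 pairs were identical.

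Members, partner lists and named genes were chosen with earlier results of these data known. Values were to be named for every member at 10 FPKM or more, the 3 smallest p per direction among the rest, members with an outlying library, CUL3, NEB, LMOD3, FLNC and NRAP, and up to 3 genes per list by smallest p.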

Additional observations from a re-analysis of the deposited data

Results flagged for a closer look

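Values of 1 library far from the other 5 of its group were looked for in 116 groups of 6 libraries, where chance gives about 1 in 20. The search found 23 such values, 15 of them in kelch members, 9 in HB-4 and 5 in LB-1. Over the 44 tested members 14 of 88 groups (15.9%) held such a value, and over all tested genes 2541 of 25154 groups did (10.1%), so outlying libraries were common among all genes. HB-4 held 35.7% of these values for the members and 35.5% for all genes. No cause of these values was tested.

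In HB-4 the outlying values of members were KLHL40 at 572 FPKM (nearest HB library 51.0), KLHL30 at 80.8 FPKM (nearest 38.5), KLHL34 at 11.5 FPKM (nearest 8.19), KLHL38 at 19.2 FPKM (nearest 5.05) and KBTBD11 at 1.24 FPKM (nearest 0.78). Among partners and other adaptors HB-4 stood apart for LMOD3 at 71.9 FPKM, NRAP at 103.0 FPKM, ABTB1 at 23.8 FPKM and a PML model at 0.61 FPKM. In LB-1 they were KLHL40 at 615 FPKM (nearest LB library 100.2), KLHL13 at 20.9 FPKM (nearest 8.77), FLNC at 417 FPKM, NRAP at 142.9 FPKM and CUL3 at 32.1 FPKM, the last being low.

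HB-5 stood apart for KLHL41 at 323 FPKM (nearest 211), for KLHL31 at 72.5 FPKM (nearest 56.0) and for KBTBD2, low at 5.43 FPKM (nearest 9.01). HB-6 stood apart for KLHL13 at 17.7 FPKM and for KLHL32 at 1.00 FPKM. Single values were KLHL26 at 4.73 FPKM in LB-3, KLHL8 at 5.43 FPKM in LB-6, KLHL1 at 0.05 FPKM in HB-2 and the PML model at 4.38 FPKM in LB-5.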

How the results depend on the processing

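No kelch member was called under any alternative run, and 0 genes were called except with DESeq2, which called 1. Leaving out single libraries gave 0 calls throughout. The number of members at 10 FPKM or more was 12 to 13 and at 1 FPKM or more 34 to 35, the median coefficient of variation was 18.6% to 24.6%, and the share of KLHL41 in the summed mean FPKM was 27.7% to 33.4%. Of 38 named log2 differences, 25 kept their sign under all alternatives, and 691 of 722 values did. The sign depended on single libraries for KLHL31 (-0.0053 to 0.17), KLHL7 (-0.0178 to 0.0678), KLHL41 (-0.24 to 0.11), KLHL40 (-2.28 to 1.48), KLHL13 (-0.45 to 0.22), KLHL34 (-0.30 to 0.17), KLHL38 (-0.73 to 0.53), KLHL26 (-0.0806 to 0.0291), KLHL8 (-0.10 to 0.0528), KLHL32 (-0.21 to 0.97), FLNC (-0.49 to 0.47), NEB (-0.0284 to 0.19) and NRAP (-0.47 to 0.30). Without LB-1 and HB-4 together it turned for KLHL41 (0.16), KLHL13 (0.18), KLHL34 (0.0396), KLHL38 (-0.88), KLHL26 (0.0195), FLNC (0.19), NEB (-0.0349) and NRAP (0.0221). KLHL7 turned with library totals (-0.0286) and with limma at pseudocounts of 1 (-0.0187) and 0.1 (-0.0193), and KLHL38 with limma at 1 (-0.0289) and 0.1 (-0.0351). Without the 2 libraries farthest on the x axis, r was -0.369 for KLHL40 with LMOD3 (no longer under 0.05), 0.363 for KLHL40 with NEB and -0.25 for KLHL41 with NEB, both turned. The cause was not tested. No paired analysis was possible because the labels give no number or batch shared between HB and LB samples. Depth limits what can be said of KLHL1, KLHL35 and the assembled KLHL29 model, with at most 13, 25 and 34 counts per library.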

Other observations

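KLHL40 was among the genes that set LB-1 and HB-4 most apart from the other 10 libraries. These 2 libraries are those in which KLHL40 stood out, so its high place in the ranking below follows from that choice and is no separate evidence. The 10361 tested genes at 1 FPKM or more were ranked by the lower of these 2 libraries over the highest of the others, a ranking made after the values were seen, and KLHL40 came 2nd with a ratio of 5.71. A myosin heavy chain model named MYH1B came 1st, with 220.0 FPKM in LB-1 and 257 FPKM in HB-4, against 9.49 to 28.3 FPKM elsewhere. LMOD2, a leiomodin, came 3rd with a ratio of 4.66.

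The 4th to 10th places were taken by GPAT3, HSPB7, IRS2, ABRA, MYH8, TP63 and ODC1, which are not all muscle genes. GPAT3, an enzyme of triglyceride synthesis, had 70.4 FPKM in LB-1 and 63.4 FPKM in HB-4, against 3.56 to 16.7 FPKM elsewhere. HSPB7, a small heat shock protein of muscle, had 385 FPKM in LB-1 and 629 FPKM in HB-4 against 21.4 to 102.6 FPKM elsewhere. ABRA, an actin-binding activator of serum response factor signalling, had 421 and 785 FPKM against 24.5 to 149.7 FPKM. IRS2, an adaptor of the insulin receptor, had 7.15 and 12.4 FPKM against 0.32 to 2.54 FPKM. ODC1, an enzyme of polyamine synthesis, had 45.1 and 53.4 FPKM against 5.95 to 17.9 FPKM. No gene list was tested in this ranking. The immediate early genes differed among themselves. FOS had 55.8 FPKM in LB-1 and 801 FPKM in HB-4 (median of all libraries 41.7), and EGR1 had 22.9 and 337 FPKM (median 25.6). ATF3 was well above its median of 18.9 FPKM in both, with 134.6 FPKM in LB-1 and 209.7 FPKM in HB-4. What LB-1 and HB-4 have in common was not tested.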
